A study of Neurospora crassa with 2 samples.

Results

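The fungal wall genes of *Neurospora crassa* described here were the rows of the deposited expression table whose symbol named an anchored cell wall protein (acw), a chitin synthase (chs), a GEL glucanosyltransferase (gel) or a glycoside hydrolase (gh) of 1 of 16 families that act on fungal polysaccharides and glycans. The rule used symbols alone and found 47 of 10559 genes. They came from 9 of the 19 symbol families in the rule: 11 acw, 5 chs and 4 gel genes, 9 gh18, 8 gh47, 7 gh76 and 1 each of gh16, gh63 and gh81. The numbering of the chs and gel genes found has gaps, and genes under other symbols were not taken. Class sums and shares therefore cover the genes found. Wild type hyphae (the bd, a strain, which carries the band allele at both time points) were grown in liquid minimal medium with glucose and harvested after 12 hr (DD12) or 20 hr (DD20) in constant darkness, and polyA RNA was sequenced. The table held 1 column per time point in RPKM, read numbers scaled by gene length and library size. The study describes duplicate RNA samples, each an equal pool of independent samples, and whether a column is 1 duplicate or both together is not given in the sources used here. The comparison of DD12 with DD20 therefore had no replicate check, and no p-value was computed. As bulk RNA was measured, fewer cells of a type and less RNA per cell cannot be told apart.

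The hyphal wall is built outside the plasma membrane from chitin, beta-1,3-glucan, mannans and glycoproteins. Chitin synthases extrude chitin at the growing tip and at septa, glucanosyltransferases of the Gas and GEL type cut and rejoin beta-1,3-glucan chains, and many wall proteins reach the surface on a glycosylphosphatidylinositol (GPI) anchor before they are attached to wall polymers. Chitinases and glucanases loosen the wall during growth, branching, fusion and spore release. Not every enzyme taken by the rule acts in the wall. Family gh47 and gh63 enzymes trim the N-linked glycans of secretory proteins in the endoplasmic reticulum and Golgi, so these genes stand here as a class of glycan processing.

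Most of the wall genes were expressed in both columns and differed little between them. Of the 47, 39 had a mean RPKM of at least 1 and were compared. Their median log2 ratio of DD20 to DD12, with 1 added to each RPKM value, was 0.14, against 0.15 for the 7414 genes of the table over the same minimum. Adding 1 makes the ratios of weakly expressed genes smaller. At 2-fold or more, 1 of the 39 was higher at DD20 (gel-4), or 2.56%, against 0.742% of all genes, and 0 were lower against 2.33% of all genes. At 1.5-fold, 2 were higher (gel-4 and gh18-3), or 5.13%, against 8.40% of all genes, and 2 were lower (acw-4 and gh76-2), or 5.13%, against 6.66%. The median absolute log2 ratio was 0.22 for the wall genes and 0.28 for all genes. These shares rest on 1 to 2 genes and stand near the background.

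The RPKM values moved in steps of whole reads, which gave library totals of 30712952 reads at DD12 and 29960356 at DD20 and a read number for each gene. From these reads a 95% counting interval of each ratio was computed without the added 1 (exact Clopper-Pearson, on reads divided by 2 because the mates of a pair appeared to be counted separately). Such an interval covers counting error and leaves out variation between RNA pools. It lay above 0 for 20 of the 39 wall genes, or 51.3%, against 44.5% of all genes, and below 0 for 9, or 23.1%, against 18.5%. At this depth small ratios of abundant genes were thus separated from 0 in most of the table too.

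Directions near 0 also depended on how the columns were scaled. Over all genes the median ratio, on the log2 scale, was 0.15 as deposited, 0.094 after both columns were brought to the same summed RPKM and -0.028 after the same step without the 10 most abundant genes. As deposited, 26 of the 39 wall genes had a ratio above 0, and so had 66.2% of all genes compared. Of the 39, 19 lay above the median of all genes. Under the deposited scaling, centring on that median and both rescalings, 19 kept a ratio above 0 and 13 a ratio below 0. The other 7 (acw-2, acw-9, chs-5, gh47-1, gh76-3, gh76-4 and gh76-6) changed sign. With the 10 most abundant genes left out of the scaling, 11 counting intervals lay above 0 and 13 below it, and at 1.5-fold 1 gene was higher and 3 were lower. The plot of ratios by class shows each gene with its interval.

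**Figure D1:**
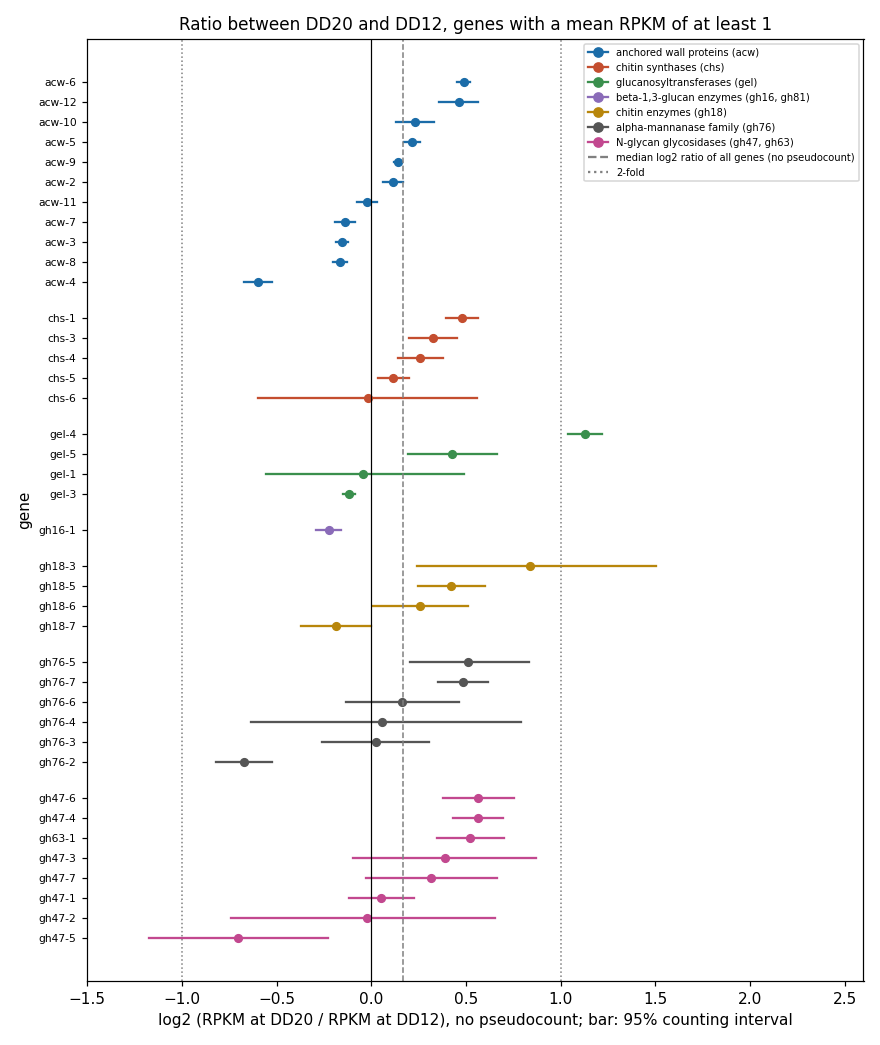
Log2 ratio of RPKM at DD20 to DD12, without a pseudocount, for the 39 compared wall genes, grouped by class. Bars are 95% counting intervals, the dashed line is the median of all genes on the same scale (0.17) and dotted lines mark 2-fold; gel-4 is the gene whose whole interval lies beyond 2-fold.

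Levels spread over about the whole range of the table. Together the wall genes made up 0.998% of the total RPKM in the DD12 column and 1.03% in the DD20 column, and the 11 acw genes held most of this, with 0.787% and 0.813%. By mean RPKM the acw genes stood at percentiles 90.8 to 99.4 of all genes, whereas the median gh18 gene stood at percentile 27.9. The order of the wall genes by RPKM was nearly the same in both columns (Spearman's rho 0.992 across 47 genes, which are not independent replicates, against 0.982 across all genes).

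**Figure D2:**
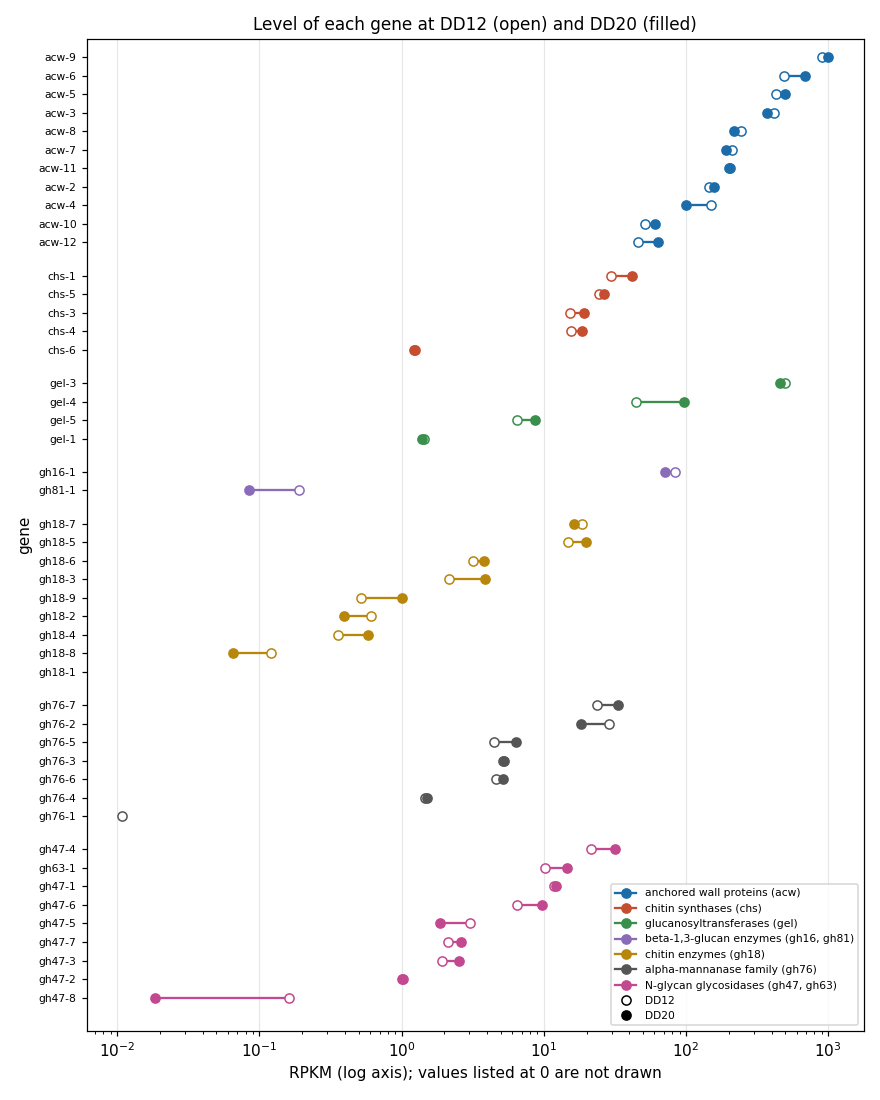
RPKM of the 47 wall genes at DD12 (open circles) and DD20 (filled circles) on a log axis, grouped by class and ordered by mean RPKM. The acw genes lie between 46.3 and 999 RPKM, most gh18 genes lie below 5, and values listed at 0 (gh18-1 at both time points, gh76-1 at DD20) are not drawn.

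Chitin synthases, the enzymes that make chitin from UDP-N-acetylglucosamine, were expressed at moderate levels. The most abundant was chs-1 (NCU03611), with 29.7 RPKM at DD12 and 41.4 RPKM at DD20, from 3786 and 5152 reads, a log2 ratio of 0.47 with a counting interval of 0.39 to 0.57. This was the largest ratio of the class. For chs-3 (NCU04251) the values were 15.3 and 19.2 RPKM, a log2 ratio of 0.31 (interval 0.20 to 0.45), and for chs-4 (NCU09324) they were 15.5 and 18.5 RPKM, a log2 ratio of 0.25 (interval 0.14 to 0.38). At DD12 as at DD20, the levels of chs-3 and chs-4 did not differ beyond counting error.

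The chitin synthase chs-5 (NCU04352), whose gene model of 6634 nt was the longest of the set and whose enzyme class carries a myosin-like domain, had 24.3 and 26.4 RPKM. Its log2 ratio was 0.11 (interval 0.04 to 0.20), and it was one of the genes whose sign depended on the scaling. By contrast chs-6 (NCU05268) was close to 1 RPKM in both columns, with 1.24 and 1.22 RPKM from 109 and 105 reads, and its interval of -0.60 to 0.56 spanned 0. Over the class, 4 of 5 genes were higher at DD20 as deposited, beside 66.2% of all genes, 3 of 5 lay above the median of all genes and 0 reached 1.5-fold. The median log2 ratio of the class was 0.25 as deposited and 0.096 after centring. Summed over the 5 genes, the reads gave a log2 ratio of 0.28 as deposited (interval 0.24 to 0.33). The class median of 0.25 compares with 0.19 for genes of the table in the same ranges of RPKM and gene length (1780 genes). For those in the same RPKM range alone (5748 genes) the median was 0.14.

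The GEL glucanosyltransferases elongate and branch beta-1,3-glucan by moving pieces between chains, as is best known for Gas1 of yeast and Gel1 of *Aspergillus fumigatus*. In both columns gel-3 (NCU08909) was by far the most abundant, with 494 RPKM at DD12 and 456 RPKM at DD20, from 37513 and 33723 reads. Its log2 ratio was -0.12 (interval -0.15 to -0.09), so that the most abundant of the gel genes found was slightly lower at DD20.

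The largest difference among the 39 genes was that of gel-4 (NCU07253). Its level was 44.5 RPKM at DD12 (2996 reads) and 97.2 RPKM at DD20 (6390 reads), which is 2.19-fold higher at DD20. Of 2 gene lengths that gave whole reads the longer was used, and the shorter would give fewer reads and a wider counting interval for gel-4. Without the added 1 the log2 ratio was 1.13, with a counting interval of 1.04 to 1.22. On the scale with the added 1 the log2 ratio was 1.11, above that of 99.5% of the genes compared. Its place beyond 2-fold depended on the scaling, as the log2 ratio was 0.96 after centring and 0.91 when the 10 most abundant genes were left out of the scaling. Within the class the share of gel-4 in the summed RPKM was 8.13% at DD12 and 17.3% at DD20, and that of gel-3 was 90.4% and 80.9%. These shares do not depend on library scaling.

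Lower levels were found for the remaining gel genes. For gel-5 (NCU06850) they were 6.45 RPKM at DD12 and 8.68 RPKM at DD20, from 524 and 688 reads. Its log2 ratio was 0.38, or 0.43 without the added 1 (interval 0.19 to 0.67). For gel-1 (NCU01162) they were 1.43 and 1.39 RPKM, from 131 and 124 reads, and the interval of -0.56 to 0.49 spanned 0. The order gel-3, gel-4, gel-5, gel-1 was the same at both time points. Because gel-3 outweighed the others, the reads summed over the 4 genes gave a log2 ratio of 0.027 as deposited, with an interval of -0.00063 to 0.055.

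Among the glucan hydrolase families, gh16-1 and gh81-1 were found. Family gh16 holds beta-1,3-glucanases and the Crh-type enzymes that link chitin to glucan, and which of these gh16-1 (NCU01353) encodes was not examined. It had 83.6 RPKM at DD12 and 71.5 RPKM at DD20, from 7881 and 6576 reads, a log2 ratio of -0.22 (interval -0.29 to -0.16). In contrast gh81-1 (NCU07076), of the family of the endo-beta-1,3-glucanase that frees daughter cells in yeast, was nearly silent, with 0.190 and 0.0853 RPKM from 16 and 7 reads. It was not compared.

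The gh18 genes encode chitinases, and they fell into a pair at 10 to 20 RPKM, a pair near 3 RPKM and 5 genes with a mean below 1 RPKM. For gh18-7 (NCU06020) the level was 18.7 RPKM at DD12 and 16.4 RPKM at DD20, from 1057 and 906 reads. For gh18-5 (NCU04554) it was 14.7 and 19.7 RPKM, from 909 and 1188 reads. Their ratios had opposite signs, with log2 ratios of -0.18 for gh18-7 and 0.40 for gh18-5. The interval of gh18-5 was 0.24 to 0.60, while that of gh18-7 began at -0.37 and ended just below 0.

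The largest ratio of the chitinases belonged to gh18-3 (NCU03026), with 2.14 and 3.83 RPKM and a log2 ratio of 0.62. It rested on 71 and 124 reads. Without the added 1 the ratio was 0.84, and its interval was wide, with a lower end of 0.24. For gh18-6 (NCU05317) the values were 3.18 and 3.80 RPKM, a log2 ratio of 0.20, or 0.26 without the added 1 (interval 0.01 to 0.51). Of the 5 chitinase genes below the minimum, gh18-9 (NCU07035) had 0.515 RPKM at DD12 and 1.01 RPKM at DD20 (58 and 111 reads). Without the added 1 its counting interval was 0.28 to 1.66. The others with reads, gh18-2, gh18-4 and gh18-8, had between 9 and 33 reads in either column, and their intervals spanned 0. No read was counted on gh18-1 in either column. At the length of its RefSeq entry (2148 nt) this allows a level of up to 0.0455 RPKM at DD12 and 0.0466 at DD20, taking 3 single reads as the limit. The limit is higher if mates are counted separately and 3 pairs are taken. Most reads of the family thus lay on a few members, and for gh18-2, gh18-4 and gh18-8 a difference was not detectable at this depth.

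The acw genes, named for wall proteins that are anchored through GPI, were the most abundant class. The highest level of all wall genes was that of acw-9 (NCU06185), with 906 RPKM at DD12 and 999 RPKM at DD20, from 67770 and 72911 reads. Next came acw-6 (NCU03530), with 490 RPKM at DD12 and 687 RPKM at DD20, and acw-5 (NCU07776), with 430 and 499 RPKM. All 3 were higher at DD20 as deposited, with log2 ratios of 0.14 for acw-9, 0.49 for acw-6 and 0.22 for acw-5, and the sign of acw-9 turned when the ratios were centred. At DD12 the levels of acw-6 and of the glucanosyltransferase gel-3 were alike (490 and 494 RPKM), and at DD20 acw-6 stood at 687 RPKM and gel-3 at 456 RPKM.

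Other abundant acw genes were lower at DD20 by small amounts. For acw-3 (NCU05667) the levels were 414 and 372 RPKM, for acw-8 (NCU07277) 244 and 218 RPKM, and for acw-7 (NCU09133) 211 and 192 RPKM. Their log2 ratios were between -0.16 and -0.14, with intervals below 0. The lowest ratio of the class was that of acw-4 (NCU09263), with 151 RPKM at DD12 and 99.8 RPKM at DD20, from 7861 and 5067 reads. Its log2 ratio was -0.59 (interval -0.67 to -0.53), lower than that of all but 6.52% of the genes compared, which is 1.51-fold lower at DD20.

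The remaining acw genes lay near or above 0. For acw-11 (NCU02041) the levels were 202 and 199 RPKM, with an interval that spanned 0, and for acw-2 (NCU00957) they were 146 and 158 RPKM. The least abundant, acw-10 (NCU03013) and acw-12 (NCU08171), had log2 ratios of 0.23 and 0.45, from 51.5 and 46.3 RPKM at DD12 to 60.5 and 63.7 RPKM at DD20. As a class, 6 acw genes were higher and 5 lower at DD20 as deposited, with a median log2 ratio of 0.12. After centring that median was -0.034, and it was -0.084 when the 10 most abundant genes were left out of the scaling.

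The acw ratios were set beside those of the 894 other genes in the same RPKM range. The median size of the log2 ratios, regardless of sign, was 0.16 for the acw genes and 0.35 for the others as deposited, but 0.29 for both after centring. The interquartile range, which centring does not move, was 0.37 for the acw genes and 0.55 for the others. In that range 16.9% of the other genes were higher at DD20 by 1.5-fold and 9.73% were lower, against 0 and 1 of the 11 acw genes. These figures are given as a description, and no test of the difference was made. RefSeq lists acw-1 as a synonym of ccg-15, which its table symbol kept out of the rule. Its level was 908 RPKM at DD12 and 889 RPKM at DD20, a log2 ratio of -0.03, so it ranked with acw-9 in abundance.

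**Figure D3:**
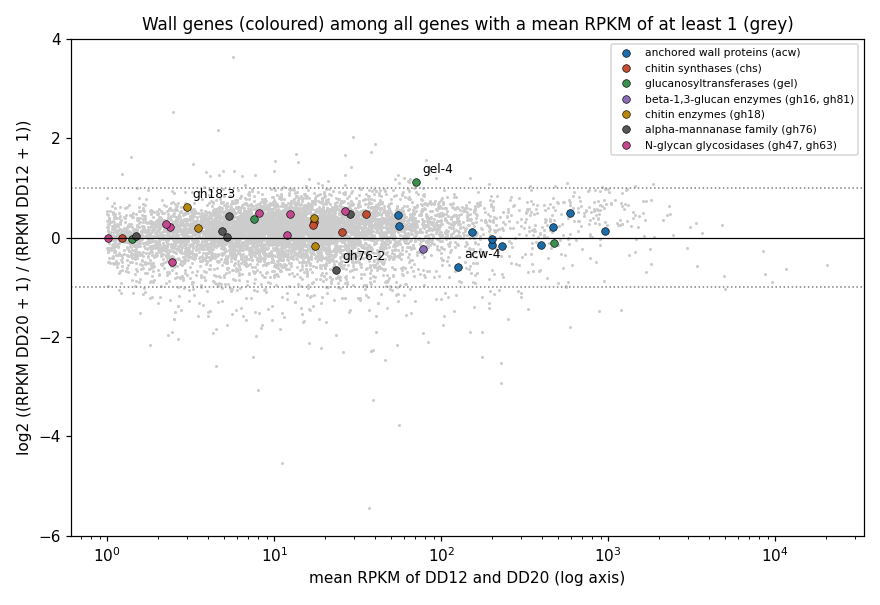
Log2 ratio (with 1 added to each RPKM) against mean RPKM on a log axis for the genes compared. Grey points are all other genes and coloured points the 39 wall genes, most of which lie inside the grey cloud between the dotted 2-fold lines; gel-4 (1.11) lies above the upper line, and gh76-2 (-0.64) and acw-4 (-0.59) are the lowest of the set.

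Family gh76 is annotated for alpha-1,6-mannanases. Its best known fungal members are Dfg5 and Dcw1, which in yeast are needed to bring GPI-anchored proteins into the wall, and RefSeq lists dfg5 as a synonym of gh76-7 (NCU03770) and dcw1 as a synonym of gh76-3 (NCU08127). For gh76-7 the level was 23.7 RPKM at DD12 and 33.2 RPKM at DD20, from 1608 and 2195 reads, a log2 ratio of 0.47 (interval 0.35 to 0.62). The level of gh76-3 was lower and nearly equal in the columns, with 5.15 and 5.24 RPKM and an interval of -0.26 to 0.30. Thus the gene listed as dfg5 stood well above the one listed as dcw1 in both columns, and the intervals of their ratios did not overlap. For gh76-3, 3 gene lengths gave whole reads and the longest was used. A shorter length would give a wider interval, and whether the intervals then stay apart was not examined.

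The other abundant gene of the family, gh76-2 (NCU04262), had 28.9 RPKM at DD12 and 18.2 RPKM at DD20, from 1959 and 1200 reads. Its log2 ratio of -0.64 (interval -0.82 to -0.52) was the lowest of the 39 genes, and it was 1.59-fold lower at DD20. Among the rest, gh76-5 (NCU09937) had 4.45 and 6.35 RPKM, a log2 ratio of 0.43, or 0.51 without the added 1 (interval 0.20 to 0.83). For gh76-6 (NCU02216), with 4.61 and 5.16 RPKM, and gh76-4 (NCU06319), with 1.46 and 1.51 RPKM, the intervals spanned 0. The seventh gene, gh76-1 (NCU02032), had 1 read at DD12 and 0 reads at DD20 and was not compared. As deposited, the reads summed over the family gave a log2 ratio of 0.028, with an interval of -0.055 to 0.111. Under that scaling the opposite ratios of gh76-2 and gh76-7 nearly cancelled. After centring the ratios were -0.79 for gh76-2 and 0.32 for gh76-7, and the sum is given as deposited only.

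The class of N-glycan processing, gh47 and gh63-1, had the largest summed ratio. Family gh47 holds the alpha-1,2-mannosidases that trim mannose from N-linked glycans, and gh63 the glucosidase that removes the outermost glucose. The highest level was that of gh47-4 (NCU05836), with 21.4 RPKM at DD12 and 31.6 RPKM at DD20, from 1624 and 2341 reads, a log2 ratio of 0.54 (interval 0.43 to 0.69). For gh47-6 (NCU02235) the values were 6.52 and 9.64 RPKM, a log2 ratio of 0.50, or 0.56 without the added 1 (interval 0.38 to 0.76). A similar ratio was seen for gh63-1 (NCU03657), with 10.1 and 14.6 RPKM and 0.48, or 0.52 without the added 1 (interval 0.35 to 0.70).

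The rest of the class had smaller ratios, not all of which could be told apart from these. The level of gh47-1 (NCU02778) was 11.8 RPKM at DD12 and 12.2 RPKM at DD20, with an interval of -0.12 to 0.22. The one clearly opposite gene was gh47-5 (NCU07067), with 3.05 and 1.87 RPKM from 207 and 124 reads, a log2 ratio of -0.50. Without the added 1 its ratio was -0.70 (interval -1.18 to -0.23). For gh47-7, gh47-3 and gh47-2, which had 1.01 to 2.63 RPKM, the intervals spanned 0. Only 9 reads at DD12 and 1 read at DD20 lay on gh47-8 (NCU09028). Over the class, 6 of 8 compared genes were higher at DD20 as deposited, beside 66.2% of all genes. Their median log2 ratio was 0.25 as deposited, 0.096 after centring, 0.11 when the 10 most abundant genes were left out of the scaling and 0.11 with 5 added to each value. Of the 8, 0 reached 1.5-fold in either direction on the scale with the added 1, although gh47-5 passed it without the added 1. The summed reads, which weigh most the genes with most reads, gave a log2 ratio of 0.39 as deposited (interval 0.32 to 0.47). On the scale of single genes, the class median of 0.25 compares with 0.15 for the 2164 other genes in the same ranges of RPKM and length. For the 5420 other genes in the same RPKM range alone the median was 0.13.

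A comparison of genes within a column does not depend on the library scaling, and it showed that the leading gene of some classes was not the same at DD12 and DD20. Of 120 pairs of compared genes within a class, 12 had the opposite order of RPKM in the columns. In 5 of these the counting intervals of both within-column ratios excluded 1. The pairs were looked for after the values had been seen, and the same count was not made for other genes of the table. Whether 12 of 120 is more or less than among other genes of like level is therefore not known. The clearest was that of gh76-2 and gh76-7. At DD12 gh76-2 was 1.22-fold the level of gh76-7 (interval 1.11 to 1.34), and at DD20 gh76-7 was 1.83-fold the level of gh76-2 (interval 1.65 to 2.02).

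The chitinases gh18-7 and gh18-5 changed places in the same way. At DD12 gh18-7 was 1.27-fold higher (interval 1.12 to 1.44), and at DD20 gh18-5 was 1.20-fold higher (interval 1.06 to 1.36). The further pairs were gh47-5 and gh47-7, gh47-1 and gh63-1, and acw-7 and acw-11, the last with ratios of 1.04 in both columns. The intervals cover counting error only, and differences between genes in how reads map were not examined. An order of 2 genes at 1.04-fold is therefore not established. For acw-4 and acw-2 the levels at DD12 did not differ beyond counting error (1.04-fold, interval 0.99 to 1.08), and at DD20 acw-2 was 1.58-fold higher (interval 1.51 to 1.66).

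**Figure D4:**
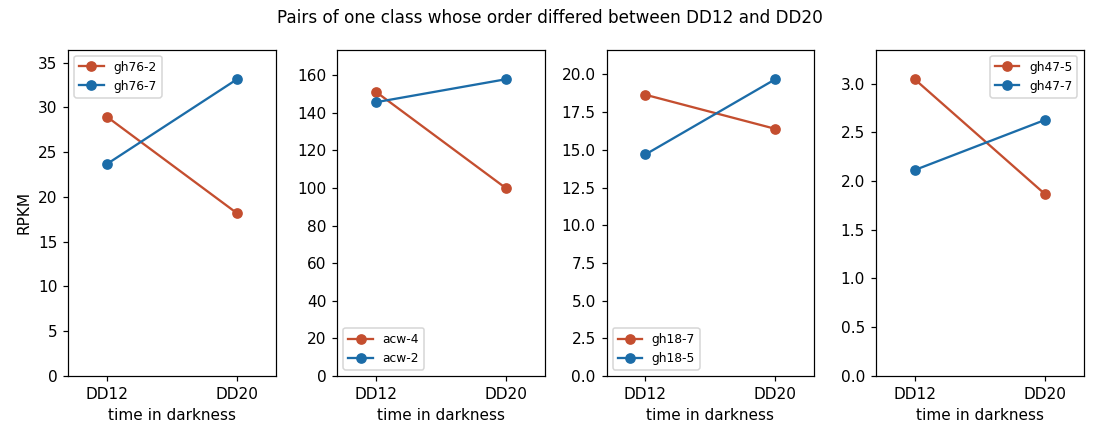
RPKM at DD12 and DD20 of 4 pairs of genes of 1 class whose order differed between the columns, with each axis starting at 0. The lines cross in each panel, and the widest gap at DD20 relative to the level is that of gh76-2 (18.2 RPKM) and gh76-7 (33.2 RPKM).

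Outside the rule, 22 genes of a list of 42 symbols of wall synthesis, signalling and GPI anchoring were found, all above the minimum level. The list was formed from symbols, and 3 of the 22 (gna-1, csr-1 and gpi-1) carry symbols that are also used for a G protein subunit, a cyclophilin and a glycolytic isomerase. Without them, 17 of 19 were higher at DD20 as deposited and 2 lower, beside 66.2% of all genes higher, and 13 of 19 lay above the median of all genes. Their median log2 ratio was 0.21, and 1 was higher by 1.5-fold, beside 8.40% of all genes. That gene was chit-1, named for a chitinase, with 89.6 RPKM at DD12 and 146 RPKM at DD20 and a log2 ratio of 0.70 (interval 0.66 to 0.75). It was more abundant than any gh18 gene of the set in both columns.

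Genes of the wall signalling pathway showed small ratios. The GTPase gene rho-1, whose product activates glucan synthase in yeast, had 338 and 380 RPKM, a log2 ratio of 0.17. For the kinases of the cell wall integrity cascade the log2 ratios were 0.19 for mik-1, 0.35 for mek-1 and 0.33 for mak-1, whereas that of pkc, the protein kinase C gene at the head of the cascade, was -0.06 with an interval that spanned 0. The sensor gene wsc-1 was lower at DD20, with 200 and 164 RPKM and a log2 ratio of -0.28 (interval -0.33 to -0.23). The gene gs-1, needed for glucan synthase activity and listed by RefSeq as a synonym of cot-2, had 17.6 and 20.6 RPKM. Ratios of the 5 genes of GPI anchoring by symbol (gpip-1, gpip-2, gpit-1, gpit-2 and gpig-1) were between 0.02 and 0.52.

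Markers of other tissues were compared with the label of the samples as hyphae. Of 5 hyphal markers listed, 2 were found by symbol. These were hex-1, which encodes the Woronin body protein that plugs septal pores, and so, which acts in hyphal fusion. Both were present at DD12 and DD20, with 1861 and 2395 RPKM for hex-1 and 10.5 and 14.2 RPKM for so. Of 8 markers of conidia and conidiophores all had reads in both columns. Among the 6 above the minimum level, the ratio was below 0 for 5, beside 2505 of the 7414 genes compared. It ran from -1.49 (con-6) to 0.14 (fl) on the log2 scale, and 2 (con-6 and csp-1) were lower by 2-fold, beside 2.33% of all genes. The summed RPKM of all 8, nearly all of it from eas, was 9333 at DD12 and 7755 at DD20. The 6 markers of sexual tissue, none of them at 0, summed to 158 and 62.1 RPKM, most of it from app. Without app the sums were 34.4 and 30.2 RPKM, and of the markers compared 2 of 5 had a ratio above 0, with 0.47 for asd-4 and 0.03 for fmf-1. The part of these other tissues in the ratios of the wall genes was not tested.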

How the data were processed

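The authors deposited 1 table of RPKM values for 10559 genes with 1 column for DD12 and 1 for DD20, and both were used. Per the labels, polyA RNA libraries were made with standard Illumina protocols, and the submitters' processing notes name CASAVA 1.8 and HISAT. The genome build, the annotation, the counting method and the strand handling are not given in the sources used here, so no coordinates are reported, and reads shared by similar genes or by antisense transcripts could not be examined.

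Samples were grouped by their titles. Ratios were taken with a pseudocount of 1 RPKM over genes whose mean RPKM was 1 or more, and genes were counted at 2-fold and 1.5-fold. With 1 column per time point no test was run, although RPKM values would otherwise be tested on a log scale. Library totals were recovered as the values at which genes as long as their RefSeq entry (assembly NC12) hold whole reads. Gene lengths from 30 nt to the RefSeq span were accepted where both columns gave whole reads within 0.001 reads plus 2e-07 of the read number, and the longest was used where several fitted (10 wall genes). A length was found for 100% of 8726 genes above 0 in both columns and for 2% of 1500 genes tried with wrong totals. Among genes with few reads (1 to 10), the number was even for 60.9% of 202 in the DD12 column and 59.0% of 205 in the DD20 column, hence the division by 2, rounded down. Intervals cover counting error only. All 47 wall genes matched a RefSeq entry by symbol. No protein or promoter sequences were used here.

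The wall genes and the lists were chosen with earlier results of these data known. Named genes were all chs and gel genes, in each other class the 3 of highest mean RPKM and the 3 of largest absolute log2 ratio, and those at 2-fold; other genes of the set were added for completeness. Of the planned classes, alpha-1,3-glucanases (gh71) and trehalases (gh37) had no matching symbol. Alternatives were pseudocounts of 0.1 and 5, other minimum levels, centred ratios, rescaled columns and all recovered reads counted. Ratios with no pseudocount, the pairs within classes, the spread of the acw ratios by scaling and the sexual markers without app were chosen after the values had been seen. The recovery of library totals and gene lengths and the counts at 2-fold were first tested on a simulated table. The other steps were not checked in this way. Python 3.11.15, pandas 2.3.3, numpy 2.4.6, scipy 1.17.1 and matplotlib 3.10.9 were used.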

Additional observations from a re-analysis of the deposited data

How the results depend on the processing

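No paired analysis was possible because DD12 and DD20 have a single column each, which also left no replicate to omit. The median log2 ratio of the wall genes, 0.14, was -0.0080 with centred ratios and -0.033 with columns rescaled without the 10 most abundant genes. Under the same pair of settings the median was -0.034 and -0.084 for the acw genes, 0.096 and 0.055 for the chitin synthases and -0.065 and -0.060 for the gh76 genes. It was 0.055 for the acw genes with columns rescaled over all genes. With a minimum mean RPKM of 10 it was 0.50 for the gel genes and -0.088 for the gh76 genes, of which fewer pass. Single genes with an interval above 0 whose sign turned were acw-2 (-0.034 and -0.084), acw-9 (-0.0080 and -0.060) and chs-5 (-0.036 and -0.081), again for centring and for the 10 genes left out.

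The number of genes higher at DD20 by 2-fold was 0 after centring, and 0 when the 10 most abundant genes were left out of the scaling. At 1.5-fold, 1 gene in place of 2 was higher with a pseudocount of 5, with a minimum mean RPKM of 10, with centred ratios and under both rescalings, and 0 in place of 2 were lower with a pseudocount of 5. Without the 10 most abundant genes, 11 intervals in place of 20 lay above 0. Of 298 values of single genes under the alternatives, 243 stayed within their counting error, 49 moved by more and 6 are the sign changes of acw-2, acw-9 and chs-5 given above. The sign also changed for gh47-1, gh76-3, gh76-4 and gh76-6, whose intervals span 0 as deposited. The cause was not tested, apart from scaling, which shifts all genes together by construction. The sums of reads by class, given as deposited only, shift with them.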
